A study of Mus musculus with 6 samples.

Results

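The genes described here encode the nuclear subunits of the mitochondrial respiratory chain and of ATP synthase, with the assembly factors whose names begin alike, measured as female over male ratios in whole mouse blastocysts. Members were chosen by the gene symbol of the array annotation alone: Nduf genes, Sdha to Sdhd, Uqcr genes, Cyc1, Cox4 to Cox8 genes and Atp5 genes. The rule found 74 probes for 67 genes, among 21446 features that make 18606 rows (8973 named genes and 9633 unnamed probes). Of the members, 26 belong to complex I, 4 to complex II, 5 to complex III, 11 to complex IV and 14 to complex V, and 7 are not constitutive subunits (Ndufaf1 to Ndufaf6, which help to build complex I, and Cox7a2l, which helps to join complexes III and IV). Using current symbols in place of the array's own gave the same 67 genes.

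RNA of female and of male embryos of day 3.5 (E3.5) was compared on 2-colour arrays, and the labels give both groups the same conditions. Dams were B6C3F1 mice aged 8 weeks. They were superovulated with gonadotropin from pregnant mare serum (5 IU) and, 48 h later, with the human chorionic hormone (5 IU). Sires were XGFPY males, a name that reads as GFP on the X chromosome. A sire's X passes to daughters only, so carrying it cannot be told apart from sex. Embryos left the oviducts at the 4-cell stage, 55 h after the second hormone, and spent 38 h in kSOM culture at 37 °C in 5% CO2, with no treatment. Pools held over 200 sex-separated embryos each, yeast tRNA (1 µg) served as carrier, and a linear amplification kit was used for labelling. How embryos were sexed is not in the labels. There were 3 independent preparations, each hybridised with female RNA in Cy5 on one array and in Cy3 on another, so that each dye orientation has 3 arrays. An array gives the ratio of whole embryos, so fewer cells of a type and less RNA per cell cannot be told apart. The values hold ratios without signal intensities, so whether a transcript was expressed, and whether the defining markers of a blastocyst were present, could not be checked.

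In the respiratory chain, complexes I and II pass electrons from NADH and succinate to ubiquinone, complex III hands them to cytochrome c and complex IV to oxygen. Complexes I, III and IV pump protons across the inner mitochondrial membrane, and complex V, the ATP synthase, uses their return to make ATP. Apart from complex II, each complex combines subunits encoded in mitochondrial DNA with many encoded in the nucleus. Oxidative phosphorylation is a main source of ATP in the preimplantation embryo, and oxygen use is known to increase towards the blastocyst stage.

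All ratios below are log2, female over male as the labels give it, with the SD over preparations (n = 3). The dyes of the labels set the sign, and the deposited values were taken to be Cy5 over Cy3. Nothing in the labels says that the preparations came from separate animals beyond calling them independent, so p-values measure the spread among these 3 preparations. Sex labels were checked first. Preparations 1, 2 and 3 gave 2.25, 2.09 and -1.55 for Xist, whose RNA silences an X chromosome in female cells. The Y-linked translation factor gene Eif2s3y stood at -1.75, -1.76 and 1.93 in that order. Both genes go against the labels of preparation 3 on both of its arrays. The main fit keeps the labels, and a second setting turns the sign of preparation 3 ("preparation 3 turned"). Every direction drawn from preparation 3 depends on that choice, and tests of X-linked genes in the turned setting are partly fixed by it.

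As a group the members lay close to equal levels in both sexes. Their median ratio was 0.032 in preparation 1, -0.0093 in preparation 2 and 0.020 in the preparation labelled 3. The mean over preparations had a median of 0.018 as labelled and 0.0034 with preparation 3 turned, against 0.0062 and 0.0045 over all rows. Of 67 members, 65 lay within 0.2 of 0 as labelled (85.9% of all rows did so). With preparation 3 turned 66 members did (83.6% of all rows, and 7968 of the 8973 named genes). The exceptions as labelled were the complex I assembly factor Ndufaf5 (0.34 ± 0.14) and the cytochrome oxidase isoform Cox6b2 (0.33 ± 0.20), and with preparation 3 turned the X-linked complex I subunit Ndufb11 (0.49 ± 0.041).

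No member passed the test for a sex difference as labelled (limma adjusted p of 1 for each named member, 0% of all rows called). Xist (0.93 ± 2.15) and Eif2s3y (-0.53 ± 2.13) were not called in that fit either. It could therefore not show a sex difference that goes against the labels of preparation 3 as these genes do. At an unadjusted limma p under 0.05 there were 2 members, against 2.60% of all rows, and both were female-higher (0.924% of all rows), with 0 members female-lower (1.68% of all rows). With preparation 3 turned, limma on the 3 preparation means called 0 members and 0% of all rows. There 9 members (13.4%) had an unadjusted p under 0.05, 5 female-higher and 4 female-lower, against 7.29% of all rows (3.89% and 3.40%). Of the 8973 named genes, 814 did so, 405 female-higher and 409 female-lower. Left to preparations 1 and 2, limma called 0 members (0% of all rows), and 2 members, Ndufb11 and Ndufaf5, had an unadjusted p under 0.05 (4.50% of all rows). limma's 95% interval lay within 0.5 of 0 for 63 of 67 as labelled (74.6% of all rows) and for 64 with preparation 3 turned (75.0%). As labelled, the interval bounds the mean that the labels give. It does not bound a sex difference if the labels of preparation 3 are reversed. The members outside as labelled were Atp5pb, Cox6b2, Ndufaf5 and Ndufb11. Every member's interval lay within 1, a doubling or halving, in both settings.

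**Figure D1:**
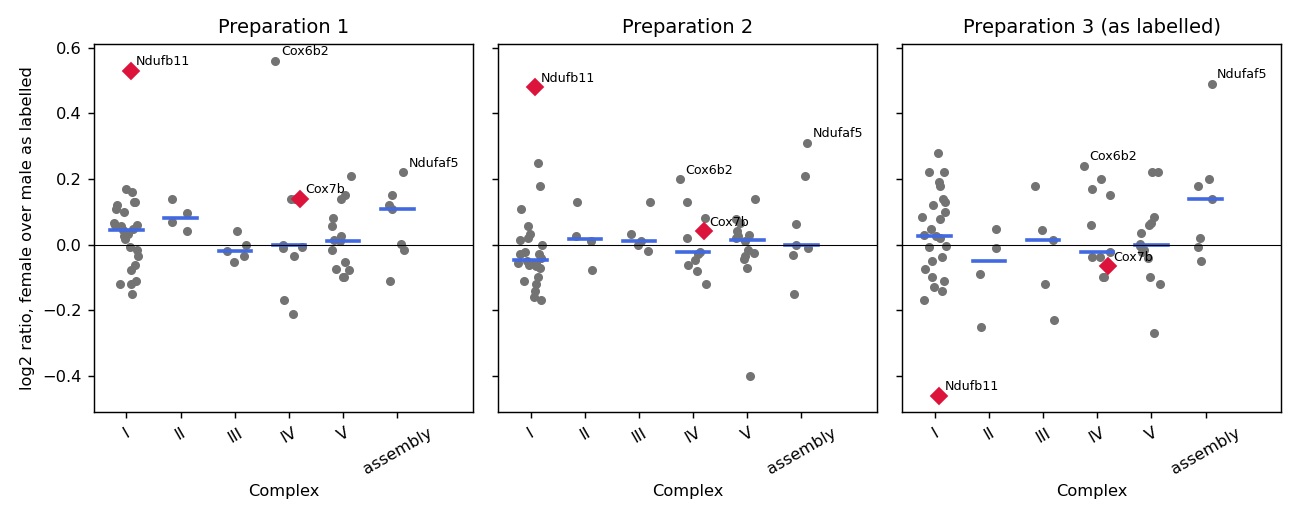
Each point is a member's log2 ratio (female over male as labelled, mean of 2 arrays) in preparation 1, 2 or 3, by complex on the horizontal axis; red diamonds are the X-linked members and blue lines the medians. Ndufb11 stands at 0.53, 0.48 and -0.46, apart from the rest of complex I in every panel, while Ndufaf5 is positive in all 3 preparations.

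Ndufb11 was the member that stood furthest from the rest with preparation 3 turned. It encodes an accessory subunit of the membrane arm of complex I and lies on the X chromosome. Its ratio was 0.58 and 0.49 on the arrays of preparation 1, 0.48 and 0.47 in preparation 2, and -0.45 and -0.47 in the preparation labelled 3 (female in Cy5 first). The first 4 values are all positive and the last 2 negative, with no overlap, and the dyes agree within 0.10 in each preparation. The sign is that of Xist in each preparation. As labelled the mean was 0.18 ± 0.56 (limma adjusted p = 1), without preparation 3 it was 0.50 (limma adjusted p = 0.886), and with preparation 3 turned it was 0.49 ± 0.041, a 1.40-fold difference (95% interval 0.36 to 0.62, limma adjusted p = 0.501). A fit of all 6 arrays, blocked by preparation and with dye as a term, called Ndufb11 when preparation 3 was turned (limma adjusted p = 0.0205; 0.210% of all rows called) and no other member. The correlation within a preparation that this fit estimated was negative (-0.145). Both arrays of a preparation, which hold the same RNA extracts, thus counted as separate replicates. Every call of the blocked fit given below carries that limit. At an unadjusted limma p under 0.05 that blocked fit held 14 members (9.04% of all rows), and as labelled it held 1, Ndufaf5 (2.75% of all rows). Over all 19 settings run, the adjusted p of Ndufb11 ranged from 0.0205 to 1.

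Cox7b, the other X-linked member, encodes a small subunit of cytochrome c oxidase. Its ratios were 0.15 and 0.13 in preparation 1, 0.19 and -0.11 in preparation 2, and 0.16 and -0.29 in the preparation labelled 3, again with female in Cy5 first. Only preparation 1 gave both arrays the same sign. The preparation means were 0.14, 0.041 and -0.065, which change sign with Xist but are a fraction of the size of Ndufb11. Turning preparation 3 gave a mean of 0.082 ± 0.052 (limma adjusted p = 0.726). Ndufb11 minus Cox7b was 0.39, 0.43 and -0.39 in the 3 preparations, a mean of 0.15 ± 0.47 as labelled (exact two-sided sign-flip test, p = 0.5). Turning preparation 3 gave 0.41 ± 0.024 and p = 0.25 in the same exact test, the smallest that 3 preparations allow. That second p carries little weight, since the sign of preparation 3 was turned on Xist, which lies on the same chromosome. Among 312 X-linked genes ordered by their mean with preparation 3 turned, Ndufb11 was number 36 and Cox7b number 155, close to the middle; the median of X-linked genes was 0.081 in that setting.

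The sequences before the starts of these genes are shown because Ndufb11 and Cox7b share a chromosome and differ in ratio, with that of Cox6a1 as an autosomal member from the other end of the ratios. They hold the 250 bases before the annotated start, from RefSeq on GRCm38.p6, written along the gene's strand: chrX:20617620-20617869 (minus strand) for Ndufb11, chrX:106015450-106015699 (plus strand) for Cox7b and chr5:115348959-115349208 (minus strand) for Cox6a1. Capitals mark matches, on either strand, to the motifs of NRF1 (GCGCATGC), ETS factors (CCGGAAGT), YY1 (AAGATGGCG) and NF-Y (CCAAT).
Ndufb11: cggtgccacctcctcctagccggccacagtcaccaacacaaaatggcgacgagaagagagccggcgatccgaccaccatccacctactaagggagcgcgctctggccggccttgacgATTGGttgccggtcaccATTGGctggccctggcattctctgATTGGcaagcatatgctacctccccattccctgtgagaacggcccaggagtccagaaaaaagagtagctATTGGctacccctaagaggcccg
Cox7b: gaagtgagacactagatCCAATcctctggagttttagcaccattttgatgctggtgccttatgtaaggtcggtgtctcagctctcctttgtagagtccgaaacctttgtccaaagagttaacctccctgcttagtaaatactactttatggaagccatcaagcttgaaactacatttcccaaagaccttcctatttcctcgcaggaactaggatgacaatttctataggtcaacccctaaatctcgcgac
Cox6a1: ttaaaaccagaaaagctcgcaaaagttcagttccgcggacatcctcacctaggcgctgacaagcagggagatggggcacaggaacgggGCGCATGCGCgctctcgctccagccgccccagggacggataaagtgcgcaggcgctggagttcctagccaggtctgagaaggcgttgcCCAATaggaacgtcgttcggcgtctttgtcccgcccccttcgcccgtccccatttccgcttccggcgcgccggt

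The stretch before Ndufb11 holds the NF-Y letters 4 times, all on the opposite strand, at 133, 116, 92 and 23 bases before the start, and that before Cox7b holds them once. The NF-Y letters were added to the search after these sequences had been seen. At least 4 matches occurred in 1.06% of the 32851 promoter windows of the table and in 3 of 58 windows of members (5.17%; Atp5b, Atp5g1 and Ndufb11). Windows run from 250 bases before to 50 after a start, and 55 of 67 members were matched by symbol. NRF1, a factor known for driving nuclear genes of the respiratory chain, had its letters in 9 member windows (15.5%) against 2.71% of all windows, in Atp5k, Atp5l, Cox6a1, Ndufa6, Ndufa8, Ndufaf4, Ndufaf5, Sdhb and Uqcrc1. In Cox6a1 they lie on both strands and overlap, 162 bases before the start. ETS letters were found in 4 member windows (6.90% against 3.89%) and YY1 letters in 5 (8.62% against 1.40%). These matches describe letters and not binding, and members with NRF1 letters had ratios of both signs with preparation 3 turned, from Cox6a1 at -0.16 to Sdhb at 0.061.

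Complex I without Ndufb11 had a median of 0.015 as labelled and -0.016 with preparation 3 turned (25 genes, from -0.15 to 0.17 in the latter). By preparation the median was 0.044, -0.050 and 0.029. The core subunits, which carry electrons from NADH to ubiquinone, included Ndufs8, an iron-sulphur protein, at -0.12, -0.11 and 0.22 in preparations 1, 2 and the one labelled 3. Its means were -0.0039 ± 0.19 as labelled and -0.15 ± 0.060 with preparation 3 turned (limma adjusted p = 0.668). Ndufv1, which binds NADH and flavin, had preparation means near 0 (0.032, -0.055 and 0.026). Of the 5 core subunits measured, 3 had a positive mean with preparation 3 turned.

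Among the accessory subunits of complex I, Ndufa10, of the membrane arm, stood at 0.13, 0.25 and -0.14, and Ndufb10, of the same arm, at 0.13, 0.18 and -0.11. With preparation 3 turned these gave 0.17 ± 0.068 (limma adjusted p = 0.653) and 0.14 ± 0.039 (limma adjusted p = 0.655). Ndufa7 went the other way, at -0.12, -0.14 and 0.19, or -0.15 ± 0.037 with preparation 3 turned (limma adjusted p = 0.653). Its arrays read -0.090, -0.15, -0.19 and -0.089 in preparations 1 and 2 and 0.20 and 0.18 in the one labelled 3. Like Ndufb11 it kept its sign on both arrays of each preparation, opposite to Ndufb11 in each. Ndufa13, also known as a cell death regulator, stood at -0.15, -0.12 and 0.077 (turned -0.12 ± 0.036, limma adjusted p = 0.685). Ndufv3, at -0.0070, -0.16 and 0.28, rested on arrays that disagreed: its values in preparation 2 were 0.72 and -1.03.

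Complex II, succinate dehydrogenase, is encoded wholly in the nucleus and was measured for all 4 of its subunits. Its median was 0.082, 0.019 and -0.049 in the 3 preparations. With preparation 3 turned, 3 of the 4 (Sdha, Sdhb and Sdhc) had 1 sign in every preparation, all female-higher. Of all rows 30.6% had 1 sign, and of all members 53.7%. Sdhc lay near 0, at 0.041, 0.010 and -0.010, and its 2 arrays had opposite signs in every preparation. Sdha, the flavin subunit that oxidises succinate, had means of 0.14, 0.13 and -0.25. It was the highest of complex II with preparation 3 turned, whereas as labelled Sdhd (0.022) and Sdhc (0.014) lay above it. That is 0.0090 ± 0.22 as labelled and 0.17 ± 0.064 with preparation 3 turned (limma adjusted p = 0.653). Its arrays ran from -0.069 to 0.36 in preparations 1 and 2, and read -0.52 and 0.026 in the preparation labelled 3, so that the groups overlap by array. The iron-sulphur subunit Sdhb stood at 0.068, 0.027 and -0.088 over 2 probes that differ: one had a turned mean of 0.13 ± 0.061 and the other -0.0075 ± 0.043. The latter probe did not keep 1 sign across preparations. Sdhd, a membrane anchor, stood at 0.096, -0.078 and 0.048.

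Complex III members lay between -0.055 and 0.12 with preparation 3 turned, with a median of -0.024. Uqcrc2, a core protein of the matrix side, was the highest at -0.0025, 0.13 and -0.23 (turned 0.12 ± 0.12, limma adjusted p = 0.724). Uqcrfs1, the Rieske iron-sulphur protein that passes electrons towards cytochrome c1, was the lowest at -0.020, 0.033 and 0.18 (turned -0.055 ± 0.11, limma adjusted p = 0.830). Their order is the reverse as labelled, where Uqcrfs1 had 0.064 ± 0.10 and Uqcrc2 -0.036 ± 0.18. Neither differed from 0 beyond its spread. Uqcrh, the hinge protein, had preparation means of -0.036, -0.020 and 0.015 beneath a dye effect many times as large.

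Complex IV had a median of 0.016 as labelled and 0.042 with preparation 3 turned. Cox6a1, the widely expressed form of subunit 6a, was the lowest with preparation 3 turned. Its arrays read -0.12 and -0.31 in preparation 1, -0.0031 and -0.16 in preparation 2, and 0.36 and 0.037 in the preparation labelled 3. All arrays of preparations 1 and 2 lie below those of the preparation labelled 3. Its mean was -0.031 ± 0.21 as labelled and -0.16 ± 0.074 with preparation 3 turned (limma adjusted p = 0.661). Its muscle form Cox6a2 stood at -0.035, -0.029 and -0.10 and was the only member with 1 sign on all 6 arrays as labelled (1.17% of all rows), at a mean of -0.056 ± 0.041 (limma adjusted p = 1).

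Cox6b2, the testis form of subunit 6b, had preparation means of 0.56, 0.20 and 0.24 as labelled, a mean of 0.33 ± 0.20 (limma unadjusted p = 0.0331, adjusted p = 1). Its arrays disagreed within each preparation, at 1.15 and -0.031, 1.18 and -0.77, and -0.093 and 0.56. Turning preparation 3 gave a mean of 0.18 ± 0.40. The widely expressed form Cox6b1 stood at -0.00018, 0.13 and -0.039. Cox8a, a small subunit present in most tissues, had means of 0.14, -0.048 and -0.039, with arrays from -0.49 to 0.76.

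Complex V had a median of 0.019 as labelled and 0.0062 with preparation 3 turned, with members from -0.12 to 0.16 in the latter. Atp5d, the delta subunit of the catalytic head's central stalk, was the highest in both settings. Its arrays read 0.10 and 0.32 in preparation 1, 0.25 and 0.040 in preparation 2 and -0.19 and -0.042 in the preparation labelled 3, with no overlap between these sets. The mean was 0.080 ± 0.17 as labelled and 0.16 ± 0.049 with preparation 3 turned (limma adjusted p = 0.654). The catalytic head's alpha and beta subunits Atp5a1 (turned 0.020 ± 0.050) and Atp5b (0.0034 ± 0.071) lay near 0, each as a mean of 2 probes that differ. The probes of Atp5a1 had opposite signs in every preparation, at -0.23, 0.18 and 0.065 and at 0.20, -0.023 and -0.061. Those of Atp5b stood at -0.14, 0.10 and 0.056 and at -0.0015, 0.029 and -0.09. Atp5mpl, a small membrane-embedded protein of the complex, was the lowest with preparation 3 turned, at -0.10, -0.017 and 0.22 (turned -0.12 ± 0.10, limma adjusted p = 0.720).

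Atp5pb, of the peripheral stalk that holds the head still, was the lowest of complex V as labelled at -0.17 ± 0.29. Its 2 probes differed: one gave 0.12, 0.072 and -0.16 in the 3 preparations and the other 0.18, -0.86 and -0.38. Turning preparation 3 gave the gene a mean of 0.0089 ± 0.36. Of the 7 members with several probes, none had probes that each held 1 sign in every preparation with opposite signs between probes.

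Of the 7 assembly members, 3 kept 1 sign through all preparations as labelled (Ndufaf2, Ndufaf3 and Ndufaf5; 18.9% of all rows) and 2 with preparation 3 turned (Ndufaf4 and Ndufaf6; 30.6% of all rows). Ndufaf5, which modifies a core subunit during complex I assembly, read -0.079 and 0.52 in preparation 1, 0.038 and 0.59 in preparation 2, and 0.35 and 0.62 in the preparation labelled 3. All 3 preparation means were positive (0.22, 0.31 and 0.49), and each array with female in Cy3 lay above its partner. As labelled its mean was 0.34 ± 0.14 (limma unadjusted p = 0.0147, adjusted p = 1), the highest of all members, and with preparation 3 turned it was 0.015 ± 0.44. Ndufaf6, an early assembly factor of complex I, read between -0.18 and -0.080 on the arrays of preparations 1 and 2 and 0.19 and 0.17 in the preparation labelled 3. Its turned mean was -0.15 ± 0.034 (limma adjusted p = 0.654). Cox7a2l stood at 0.15, -0.00085 and -0.050 (turned 0.066 ± 0.076).

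**Figure D2:**
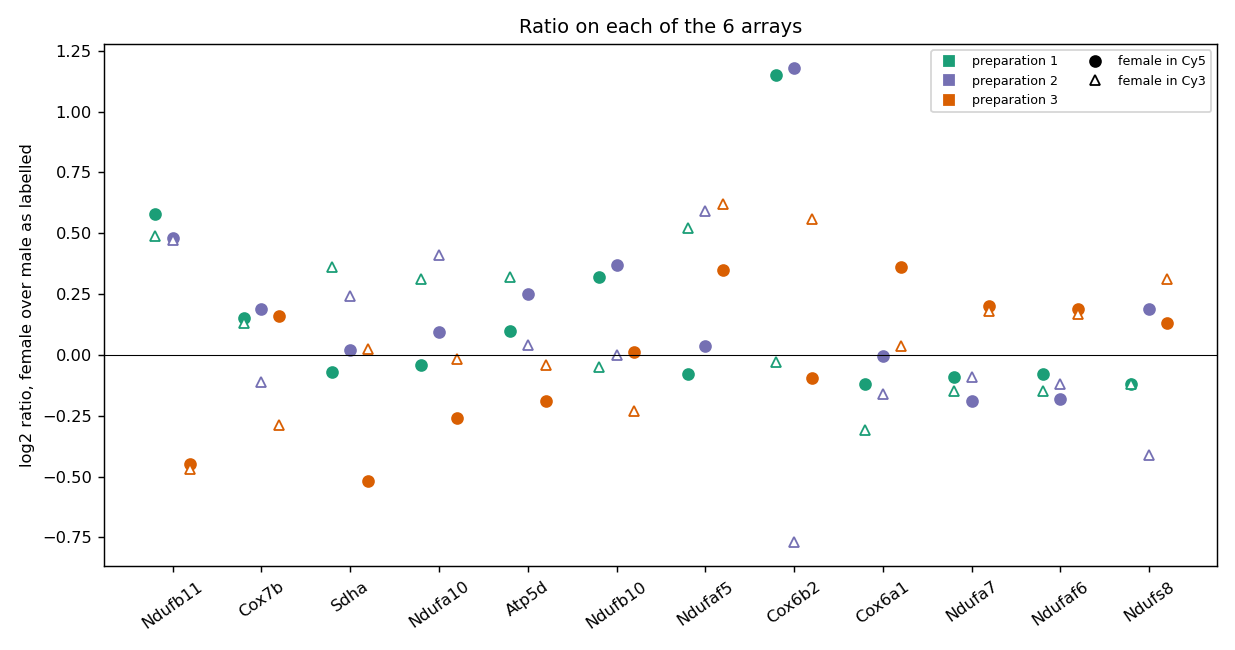
The vertical axis is the log2 ratio (female over male as labelled) of 12 members on each of the 6 arrays; colours are preparations, filled circles arrays with female RNA in Cy5 and open triangles arrays with female RNA in Cy3. Ndufb11 has tight pairs at 0.58 and 0.49, 0.48 and 0.47, and -0.45 and -0.47, whereas the pairs of Cox6b2 lie far apart.

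With preparation 3 turned, 36 of 67 members (53.7%) had 1 sign in all 3 preparations, 18 female-higher and 18 female-lower, against 30.6% of all rows. Of the 8973 named genes, 3289 did so. As labelled the count was 7 (10.4%), against 18.9% of all rows: Atp5l, Cox6a2, Cox6b2, Ndufa8, Ndufaf2, Ndufaf3 and Ndufaf5. With preparation 3 turned, 5 members kept 1 sign on all 6 arrays (4.40% of all rows): Ndufb11 and Atp5d were female-higher, and Cox6a1, Ndufa7 and Ndufaf6 female-lower. Across the 67 members the ratios of preparations 1 and 2 had a Pearson correlation of 0.553, those of preparations 1 and 3 of -0.435 and those of preparations 2 and 3 of -0.241. Without Ndufb11 these were 0.426, -0.307 and -0.0624, and across all 8973 named genes 0.0408, -0.359 and 0.0173. Spearman's rho differed from these for preparations 2 and 3. In the same order it was 0.447, -0.574 and -0.423 across members, 0.422, -0.557 and -0.396 without Ndufb11, and 0.135, -0.356 and -0.0818 across named genes. Genes are not independent replicates, each preparation's ratios share RNA pools and arrays, and these values are a description.

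By complex, medians with preparation 3 turned ranged from -0.024 (complex III) to 0.042 (complex IV). Complexes I, II and V lay between, at -0.014, 0.041 and 0.0062. The SD over preparations of a single member had a median of 0.062, which does not measure the spread of a complex median. By preparation, as labelled, the median of complex III was -0.020, 0.012 and 0.015. That of complex IV was -0.00018, -0.022 and -0.022. The order of the complexes changed when a preparation was left out. Without preparation 1, and with preparation 3 turned, complex IV stood at -0.0044, complex I was the lowest at -0.039 and complex II the highest at 0.034. Without preparation 2 complex III was the lowest at -0.026 and complex II again the highest at 0.052. As labelled the complex medians ranged from -0.014 (complex III) to 0.019 (complex V), and the median SD of a single member was 0.10. Subunits were also split by a grouping made here. The 14 classed as core were all of complex II, 5 of complex I, Cyc1, Uqcrfs1, Atp5a1, Atp5b and Atp5d. Their turned median was 0.020, with 9 positive. All other subunits were classed as accessory, Uqcrc2, Atp5g1, Atp5g3 and Atp5pb included. The 44 autosomal ones among these had a turned median of -0.0074 with 21 positive.

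The mean dye difference was larger in size than the mean sex ratio for 44 of 67 members with preparation 3 turned and for 50 as labelled. The dye effect, Cy5 over Cy3 averaged over both orientations, had an SD of 0.15 across members, against 0.10 for the turned sex ratio. No member had a mean dye effect over 0.5 in size (15.5% of all rows did), and 11 (16.4%) were over 0.2 (40.1% of all rows). The largest were Cox6b2 (0.41 ± 0.67), Ndufv3 (0.41 ± 0.42) and Uqcrh (0.28 ± 0.033) towards Cy5, and Sdhd (-0.31 ± 0.16), Cox8a (-0.30 ± 0.29) and Ndufv1 (-0.28 ± 0.25) towards Cy3. Uqcrh had nearly the same effect in each preparation, at 0.30, 0.24 and 0.29. For 17 members (25.4%) the labelled sex ratio had opposite signs in the 2 orientations on every array, against 25.7% of all rows. limma called 0 members and 0% of all rows for the dye effect, and 14 members had an unadjusted p under 0.05 (26.6% of all rows). With each array centred on its median it still called 0 members, against 2.40% of all rows. Ndufb11 had a dye effect of 0.019 ± 0.024.

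**Figure D3:**
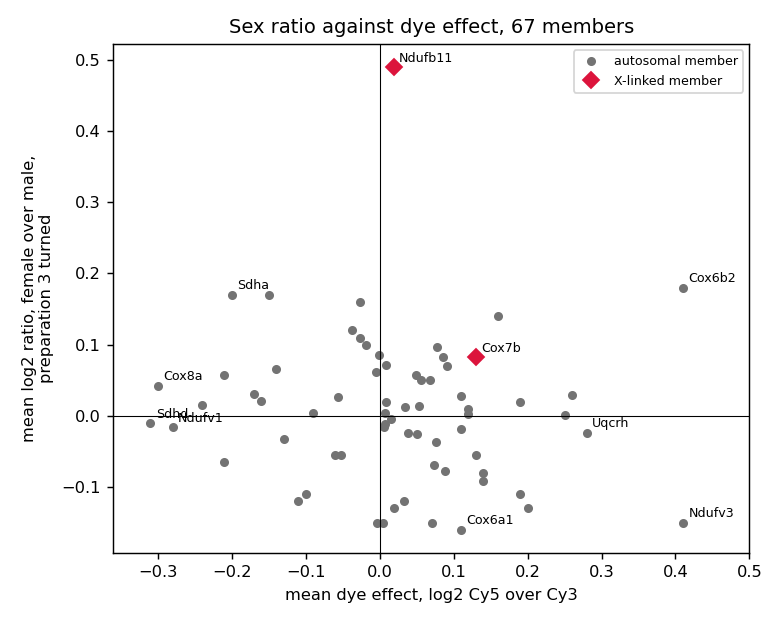
The horizontal axis is each member's mean dye effect (log2 Cy5 over Cy3) and the vertical axis its mean log2 ratio, female over male, with preparation 3 turned; points are the 67 members and red diamonds the X-linked ones. Ndufb11 lies at 0.49 with a dye effect of 0.019, while Cox6b2, Ndufv3 and Sdhd have the widest dye effects.

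Other mitochondrial genes were taken from lists of known function. As labelled and with preparation 3 turned, limma on the 3 preparation means called none of them. The citrate cycle and pyruvate dehydrogenase list, which supplies NADH and succinate, had a turned median of 0.0098 over 14 genes, of which 2 had an unadjusted limma p under 0.05 (7.29% of all rows). Both were X-linked and female-higher: Pdha1, the pyruvate dehydrogenase alpha subunit, at 0.74, 0.55 and -0.54, and Idh3g, a subunit of isocitrate dehydrogenase, at 0.89, 0.64 and -0.69. The carrier list held the X-linked Slc25a5, an ADP and ATP exchanger of the inner membrane, at 0.41, 0.49 and -0.54, and the protein import list the X-linked Timm17b at 0.32, 0.30 and -0.47. In the blocked fit of all arrays, with preparation 3 turned, limma called Pdha1 (adjusted p = 0.0393) and Slc25a5 (adjusted p = 0.0402) but not Idh3g (adjusted p = 0.136) or Timm17b (adjusted p = 0.140). In each preparation all of them had the sign of Ndufb11.

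Of the other lists, the mitochondrial ribosome had a turned median of 0.00017 over 55 genes, with 0 female-higher and 5 female-lower at an unadjusted limma p under 0.05 (3.89% and 3.40% of all rows). Those of the 5 with 1 sign on all 6 arrays were Mrpl47 (-0.21, -0.26 and 0.18), Mrps14 (-0.15, -0.19 and 0.26) and Mrps15 (-0.23, -0.21 and 0.096). Coq2, an enzyme of ubiquinone synthesis, stood at -0.48, -0.28 and 0.29 (turned limma adjusted p = 0.610). Timm17a, the autosomal relative of Timm17b, stood at 0.25, 0.13 and -0.14, and the complex I assembly factor Acad9 at 0.17, 0.14 and -0.19. The 27 assembly factors, 6 of them members, had a turned median of 0.015, 15 regulators of mitochondrial biogenesis and DNA one of -0.011, and 6 antioxidant enzymes one of 0.032. Coenzyme Q synthesis (7 genes) had 0.0052, electron carriers (4 genes) 0.038, carriers (10 genes) -0.017 and protein import (18 genes) 0.022. The vacuolar proton pump, the related rotary ATPase of acid organelles, had a turned median of 0.042 over 12 genes, and its X-linked accessory subunit Atp6ap2 stood at 1.09, 1.03 and -1.02. The blocked fit with preparation 3 turned called Atp6ap2 too, with the lowest adjusted p of the listed genes it called (limma adjusted p = 0.00322).

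**Figure D4:**
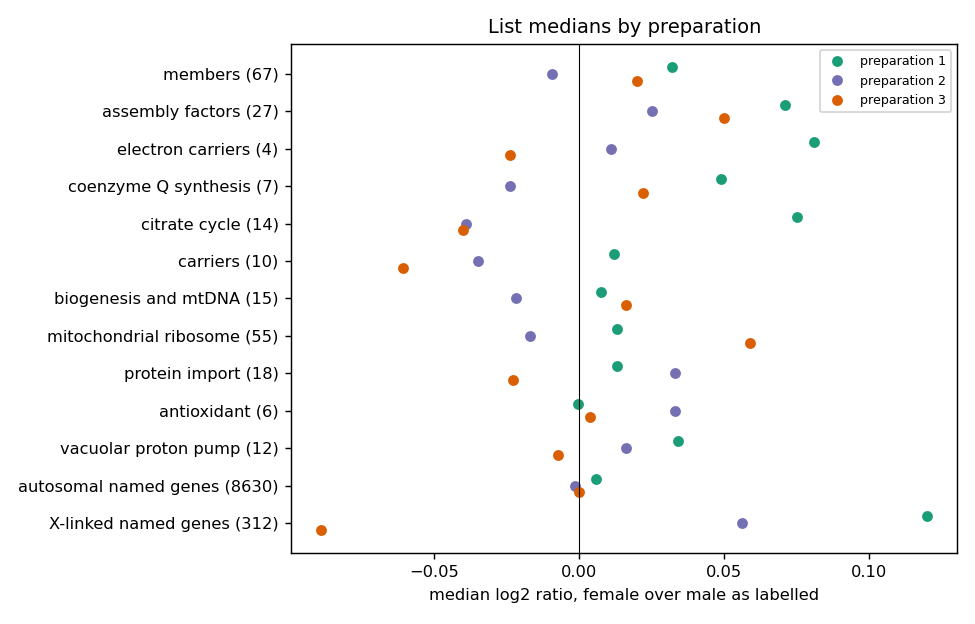
The horizontal axis is the median log2 ratio (female over male as labelled) of each list in each of the 3 preparations, with the number of genes in brackets. Members stay between -0.0093 and 0.032, near autosomal named genes, while X-linked genes read 0.12, 0.056 and -0.089.

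Markers of embryo cell types moved with preparation too. The 8 measured of 9 inner cell mass genes had medians of 0.17, 0.081 and -0.16 in the 3 preparations, 8 of 9 trophectoderm genes -0.098, 0.23 and -0.10, and 7 of 8 primitive endoderm genes 0.19, -0.010 and -0.00017. Of cells carried along with embryos, 3 of 7 cumulus and granulosa genes had 0.12, -0.080 and -0.13, 2 of 4 oviduct genes -0.046, 0.11 and -0.019, and 3 of 5 blood cell genes 0.042, -0.28 and -0.0034. The 1 measured of 5 sperm genes stood at -0.045, 0.27 and 0.36. With preparation 3 turned, 4 of the 8 inner cell mass genes had an unadjusted limma p under 0.05, all female-higher (3.89% of all rows). Among them Nanog, a pluripotency factor on an autosome, stood at 0.37, 0.41 and -0.38 and was called by the blocked fit (limma adjusted p = 0.0393). Of the 8 trophectoderm genes 3 had an unadjusted limma p under 0.05 in the turned setting (7.29% of all rows). Turned medians were 0.16 for the inner cell mass genes (7 of 8 positive) and 0.16 for the trophectoderm genes (5 of 8 positive). Of the 3 trophectoderm genes, 2 were female-higher and 1 female-lower (3.89% and 3.40% of all rows). The latter was Krt7, at -0.29, -0.38 and 0.35, which the blocked fit did not call (limma adjusted p = 0.0573). An unadjusted limma p under 0.05 in the turned setting was also reached by 1 of the 3 cumulus and granulosa genes (female-higher, 3.89% of all rows). The same held for 1 of the 3 blood cell genes (female-lower, 3.40% of all rows). The part of these markers in the ratios of the members was not tested.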

How the data were processed

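The authors deposited 1 log10 ratio of the 2 channels per feature and array, taken as log10 because the values stop at exactly -2 and 2. Base, direction and centring are not stated; array medians were 0 to 0.00223. Scans were read with Feature Extraction 7.5 and arrays combined with Luminator, per the labels' series design text; the sources used here do not say which of them made these values. Fold changes depend on the base. Ratios were multiplied by 3.322 to give log2, turned by dye label and averaged over a gene's single-symbol probes (11813 probes, 11782 matched by gene number to the RefSeq table of GRCm38.p6) and over the 2 arrays of a preparation, which hold the same extracts per the labels. Raw arrays, read as Cy5 over Cy3, correlated at 0.546 to 0.909 across rows, and the cause was not tested. Deviations of a preparation's 2 arrays correlated at -0.228, -0.103 and 0.0607, so the pairing rests on the labels. limma 3.58.1 (R 4.3.3, lmFit and eBayes, two-sided, Benjamini-Hochberg at 0.05) was fitted across all genes (18606 rows). It was also run on simulated data. There the arrays of a preparation shared no preparation effect, so those runs could not test how the blocked fit treats the pairing. Members, lists and settings were chosen with earlier results of these data known, the turned setting included. Named by rule were X-linked members, members with an unadjusted p under 0.05 in either setting, the highest and lowest of each complex and the 3 largest dye effects of each sign. Spot flags and intensities were not analysed here, and the number of arrays limits the precision.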

Additional observations from a re-analysis of the deposited data

Results flagged for a closer look

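For 6 of the 25 members chosen by the naming rule (and 17 of all 67), the sex ratio as labelled changed sign with the dye. It was of one sign on every array with female RNA in Cy5 and of the opposite sign on every array with female RNA in Cy3. Of all rows 25.7% did so, near the share of members (25.4%). Uqcrh, Ndufv1 and Cox8a were among the 25 only for their large dye effects, so that count partly follows from the rule. The mean dye effects of those 6 (log2, Cy5 over Cy3) were 0.28 for Uqcrh, 0.16 for Ndufb10, -0.14 for Cox7a2l, -0.28 for Ndufv1, -0.30 for Cox8a and -0.31 for Sdhd. limma's test of the dye effect called none of them (0% of all rows called). No other test of the difference between orientations was run, and the cause was not tested.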

How the results depend on the processing

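As labelled, 0 rows and 0 members were called, which held without each replicate in turn (0 to 0), with arrays centred, by probe, without exact zeros or limits and on a log2 reading. With the replicate block and dye term 0 rows were called as labelled and 39 with preparation 3 turned, 1 of them a member; without the block these were 0 and 26, again with 1 member, Ndufb11. Arrays with female in Cy3 alone gave 628 rows and, with preparation 3 turned, those with female in Cy5 alone gave 692; a single orientation does not cancel the dye effect. The members' median (0.018) moved beyond its spread in 5 of 22 settings. It was 0.047 with female in Cy5 alone and -0.019 in Cy3 alone, or 0.039 and -0.018 with preparation 3 turned. The last was preparation 3 turned without replicate 1, where the median changed sign to -0.016. It stayed within its spread without 1 replicate as labelled (0.0089 to 0.029) and without replicate 2 with preparation 3 turned (0.017). The dye effect was called in 0 rows, 0 to 0 without 1 replicate, and in 446 with arrays centred, 0 of them members. Of 25 named members, 17 kept their sign with preparation 3 turned, and 14, 19 and 21 did so without replicate 1, 2 and 3. Ndufb11 stood at 0.18 as labelled, at 0.0091 without replicate 1, at 0.039 without replicate 2 and at 0.50 without replicate 3. The causes were not tested.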
